A study of Caenorhabditis elegans with 2 samples.

Results

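The 6 Hox genes of Caenorhabditis elegans (lin-39, ceh-13, mab-5, egl-5, php-3 and nob-1) were examined for binding of UNC-62 in their gene bodies and within 10000 bp on either side. They were taken by name, as 6 of 19973 nuclear protein-coding genes. All 6 lie on chromosome III. Binding was measured by ChIP-seq (sequencing of the chromatin fragments that an antibody to the protein recovers) in whole animals of strain OP600. The animals are recorded as males and females pooled. The labels give this strain the genotype unc119(ed3) with the insertion wgIs600, which holds unc-62 fused at its C-terminal end to TY1, EGFP and FLAG tags together with an unc119 copy. The labels name unc-62 as the antibody's target. There were 2 biological replicates in 1 group. The stage reads dauer in the stage field and D4 in the description, so it is not settled here. No second condition was analysed, and the comparisons are between replicates and between the Hox windows and the rest of the genome. The animals are whole, so the cells in which a site was bound cannot be told apart.

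Hox genes encode homeodomain transcription factors that give body regions their identity along the axis from head to tail. Hox proteins often bind DNA beside a Pbx-class and a Meis-class homeodomain protein. In C. elegans UNC-62 is the Meis-class partner and CEH-20 a Pbx-class partner. The gene ceh-13 is the labial homolog and acts in the anterior embryo, lin-39 acts in the mid-body and the vulval precursor cells, and mab-5 acts in the posterior body and in migrating neuroblasts of the Q lineage. The other 3 genes are homologs of Drosophila Abdominal-B, with egl-5 acting in the tail and php-3 and nob-1 in posterior patterning of the embryo.

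Of the 6 genes, lin-39, ceh-13 and mab-5 had UNC-62 summits in the list called on both replicates pooled, and egl-5, php-3 and nob-1 had none. The pooled summits numbered 2 at lin-39, 2 at ceh-13 and 1 at mab-5. Their signals ran from 16.3 to 28.7, where signal is the authors' enrichment value for a region, on a scale that the sources do not state. Their deposited q values ran from 0.163 to 0.890, so none was below 0.05, and the pooled list holds background regions as well as peaks. None of the 6 windows held a region of the reproducible list, which passed the authors' irreproducible discovery rate threshold. Among the other 19967 nuclear protein-coding genes, 34.7% had a pooled summit in a window built the same way and 1.69% had a reproducible one. With 6 genes, some of which share a window, 3 of 6 cannot be told from that background, and no test was made.

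The sequences around the 5 pooled summits are shown because they are the pooled summits of the 6 genes, and the sixth because it is the strongest lin-39 summit of a single replicate. Each runs from 100 bases before to 100 bases after the summit on the plus strand of WBcel235 (ce11), read from the RefSeq assembly. Capitals mark matches, on either strand, to the motifs TGACAG (the Meis core), TGATTGAC (a Pbx and Meis composite), TGATNNAT (a Pbx and Hox composite) and GAGAGA.
lin-39 intron, pooled, chrIII:7531129-7531329: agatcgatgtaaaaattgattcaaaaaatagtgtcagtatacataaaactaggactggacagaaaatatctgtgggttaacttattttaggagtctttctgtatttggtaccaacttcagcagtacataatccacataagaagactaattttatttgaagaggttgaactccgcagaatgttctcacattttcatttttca
lin-39 upstream, pooled, chrIII:7538005-7538205: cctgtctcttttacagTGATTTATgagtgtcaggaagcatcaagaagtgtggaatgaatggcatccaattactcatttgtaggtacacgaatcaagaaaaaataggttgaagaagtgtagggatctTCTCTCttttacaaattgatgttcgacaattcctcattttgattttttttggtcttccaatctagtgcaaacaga
ceh-13 upstream, pooled, chrIII:7554968-7555168: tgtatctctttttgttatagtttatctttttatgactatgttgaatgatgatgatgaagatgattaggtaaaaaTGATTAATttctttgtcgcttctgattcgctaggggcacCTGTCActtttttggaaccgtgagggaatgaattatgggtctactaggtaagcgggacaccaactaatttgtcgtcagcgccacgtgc
ceh-13 downstream, pooled, chrIII:7560057-7560257: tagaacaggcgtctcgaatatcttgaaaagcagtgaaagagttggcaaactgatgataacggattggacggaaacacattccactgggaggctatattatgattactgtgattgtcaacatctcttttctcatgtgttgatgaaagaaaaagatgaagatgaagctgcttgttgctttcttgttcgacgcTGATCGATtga
mab-5 downstream, pooled, chrIII:7771198-7771398: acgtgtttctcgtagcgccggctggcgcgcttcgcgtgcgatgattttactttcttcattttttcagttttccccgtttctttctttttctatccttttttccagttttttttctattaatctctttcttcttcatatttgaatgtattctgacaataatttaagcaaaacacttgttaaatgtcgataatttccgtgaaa
lin-39 internal start, replicate 2 alone, chrIII:7534767-7534967: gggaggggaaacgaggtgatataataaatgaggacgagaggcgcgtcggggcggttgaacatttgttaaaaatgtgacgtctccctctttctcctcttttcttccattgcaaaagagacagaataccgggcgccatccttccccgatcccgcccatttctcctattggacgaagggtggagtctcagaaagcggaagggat

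The gene lin-39 (WBGene00003024, chrIII:7528641-7536632, minus strand) had its stronger pooled summit in an intron, 5403 bp into the gene, with a signal of 21.7 and rank 367 of 2155. The nearest replicate 1 summit lay 125 bp away with a signal of 13.6 (rank 274 of 30000), and the nearest replicate 2 summit lay 5 bp away with a signal of 6.47 (rank 10143). Both replicates thus placed a summit within 200 bp, but their ranks were far apart. The other pooled summit lay in intergenic sequence 1473 bp upstream of the lin-39 start, with a signal of 16.3 (rank 1663) and a q value of 0.890. Replicate 2 had a summit 1 bp from it (signal 11.7, rank 650), whereas the nearest summit of replicate 1 was 1457 bp away.

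The strongest replicate 2 summit at lin-39 was in neither the pooled nor the reproducible list. It lay at 7534867, in an intron of the longer transcript and 62 bp upstream of an internal lin-39 transcript start, with a signal of 16.1, rank 111 and a deposited q value of 0.0317. The nearest replicate 1 summit was 390 bp away (signal 8.26, rank 3489) and the nearest pooled summit 3238 bp away. Of the bases shown for it, 51.2% were G or C, and none of the 4 motifs was present.

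The gene ceh-13 (WBGene00000437, chrIII:7555660-7558041, plus strand) had the strongest pooled summit of the 6 genes. It lay in intergenic sequence 592 bp upstream of the ceh-13 start, with a signal of 28.7 (rank 120) and a q value of 0.163. In replicate 2 the summit 32 bp away had a signal of 24.3, rank 18 and a q value of 0.0118. In replicate 1 the nearest summit had a signal of 11.2, rank 782 and a q value of 0.103, and lay 1 bp beyond the 200 bp used to call a match. The lowest signal in the reproducible list was 31.2, at rank 95 of the pooled list, so that this summit fell short of it.

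The second pooled summit at ceh-13 lay 4497 bp past the gene's start on its downstream side, with a signal of 23.8 (rank 234). Its nearest protein-coding start was that of lgc-12, which encodes a ligand-gated ion channel subunit and starts 2015 bp away. Both replicates had a summit within 200 bp, but a low one, with a signal of 4.21 (rank 26023) in replicate 1 and 5.98 (rank 12856) in replicate 2. This summit was therefore ranked high only in the pooled list. The 2 replicate summits near it lay 273 bp from each other.

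The gene mab-5 (WBGene00003102, chrIII:7776835-7783454, minus strand) had its only pooled summit on the downstream side, 12156 bp from its own start, with a signal of 19.6 (rank 600). The nearest protein-coding start was that of snu-23, which encodes a spliceosome component, 1178 bp away. Replicate 1 had a summit 4 bp from it with a signal of 16.0, rank 140 and a q value of 0.0424, whereas the nearest replicate 2 summit was 6789 bp away. Replicate 1 also had a summit in an intron of mab-5, 3593 bp into the gene, with a signal of 11.9 (rank 570) and the nearest replicate 2 summit 3588 bp away. Replicate 2 had its strongest summit of this window 9845 bp upstream of mab-5, with a signal of 11.4 (rank 753), nearest to the start of cyk-7. No summit of the pooled list was closest to the mab-5 start.

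The gene egl-5 (WBGene00001174, chrIII:7814374-7817141, plus strand) had no pooled summit in its window, and the nearest lay 29693 bp from its start. Its highest replicate 1 signal was 6.69 (rank 8000), at a summit 3695 bp from the gene's start on the downstream side. Its highest replicate 2 signal was 7.77 (rank 5131), at a summit 6834 bp upstream. Replicate summits matched within 200 bp at 2 places, 51 bp apart downstream of the gene and 145 bp apart upstream, at signals between 4.05 and 5.48.

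The paralogs php-3 (WBGene00004024, chrIII:12074218-12077556, minus strand) and nob-1 (WBGene00003779, chrIII:12077793-12084316, minus strand) are neighbours with 236 bp between them, and their windows share 19764 bp. The nearest pooled summit lay 155681 bp from the php-3 start and 162441 bp from the nob-1 start. Across both windows there were 6 summits in replicate 1 and 5 in replicate 2, and none of them matched within 200 bp. The highest replicate 1 signal was 6.75 (rank 7811), in an intron of nob-1. The highest replicate 2 signals were 8.38 (rank 3743), in a coding exon of zyg-8, which encodes a doublecortin-domain kinase, and 8.36 (rank 3793), 4430 bp upstream of nob-1.

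**Figure D1:**
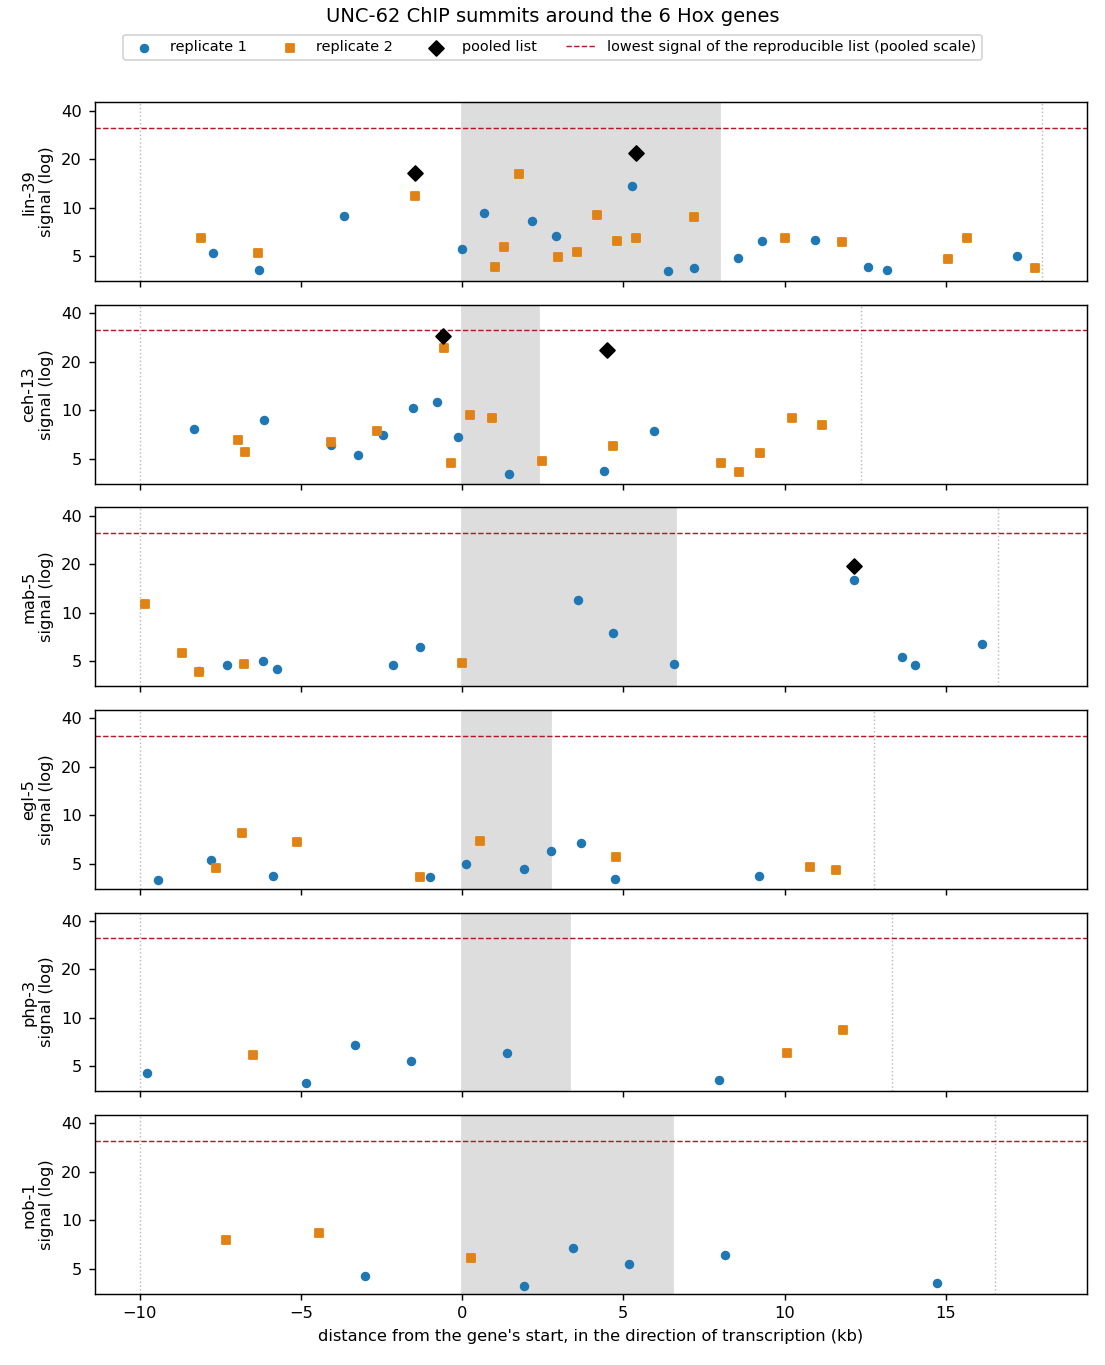
Signal of each summit (log axis) against its distance from the gene's start in the direction of transcription, for replicate 1 (circles), replicate 2 (squares) and the pooled list (diamonds); grey bands are gene bodies, dotted lines the window ends and the dashed line the lowest pooled signal in the reproducible list, 31.2. The 5 pooled summits lie at lin-39, ceh-13 and mab-5, all below the dashed line. Signals of different lists are not on a shared scale.

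By gene structure, 1 of the 5 pooled summits was in an intron and 4 were intergenic. Of the 5, 3 had a start of lin-39 or ceh-13 as the nearest protein-coding start. In the replicate lists, 10 of 16 replicate 1 summits and 12 of 17 replicate 2 summits in the lin-39 window were nearest to a lin-39 start, and 9 of 11 and 9 of 15 in the ceh-13 window to the ceh-13 start. At mab-5, whose window overlaps 7 other protein-coding genes, it was 4 of 13 and 1 of 5. At egl-5, whose window overlaps egl-45 alone, it was 9 of 10 and 6 of 8.

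The pooled counts were set beside windows of the same size laid end to end over the 6 nuclear chromosomes. At least 2 pooled summits, as at lin-39, were in 13% of 3570 windows of 27992 bp, and as at ceh-13 in 9.65% of 4467 windows of 22382 bp. At least 1, as at mab-5, was in 38.4% of 3755 windows. No pooled summit, as at the other 3 genes, was the usual case, in 66.2% of windows of the egl-5 size, 65.3% of the php-3 size and 62.2% of the nob-1 size. With the first 1000 pooled regions alone, lin-39 kept 1 summit, as its other ranked 1663, while ceh-13 kept 2 and mab-5 kept 1. At least 1 such summit was in 21.2% of windows of the lin-39 size and 20.4% of the mab-5 size. At least 2 were in 3.09% of the ceh-13 size. A pooled signal as high as that of ceh-13 was found in 2.06% of windows of its size, against 8.04% for lin-39 and 12.4% for mab-5. These shares describe the windows and are not p-values.

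Over the 4 stretches that the windows make when merged (128.89 kb), the pooled list had 5 summits where the mean nuclear density gives 2.75. The replicate 1 list had 56 against 38.5, and the replicate 2 list 50 against 38.6. Each replicate list holds 30000 regions, background included, so these numbers count weak regions as well. Median signals in the Hox windows were 5.30 in replicate 1 and 6.05 in replicate 2, and over all nuclear regions 5.43 and 5.65.

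The density of replicate summits fell into an order with lin-39 and ceh-13 at the top and the php-3 and nob-1 pair at the bottom. The lin-39 window held 16 summits in replicate 1 and 17 in replicate 2, or 5.72 and 6.07 per 10 kb. At least as many were found in 3.22% and 1.62% of windows of that size elsewhere, where the median was 8 in each list. The ceh-13 window held 11 and 15, or 4.91 and 6.70 per 10 kb, and 10.6% and 0.918% of windows had at least as many. The egl-5 window held 10 and 8, or 4.39 and 3.51 per 10 kb, with at least as many in 18% and 40.3% of windows. The mab-5 window held 13 and 5, or 4.88 and 1.88 per 10 kb, with at least as many in 9.24% and 83.4% of windows. For php-3 the counts were 6 and 3 (2.57 and 1.29 per 10 kb), with at most as many in 46.3% and 13.4% of windows. For nob-1 they were also 6 and 3 (2.26 and 1.13 per 10 kb), with at most as many in 35.5% and 8.94% of windows of the nob-1 size. The ranges of lin-39 and ceh-13 overlapped, as did those of egl-5 and mab-5 and of mab-5 and php-3, so these neighbours in the order did not differ beyond the replicates' spread. The php-3 and nob-1 windows hold the same 6 replicate 1 summits and share 1 of replicate 2, so their values are not separate observations. The range of ceh-13 lay above that of egl-5, with 2 replicates and no test. Its lower value (4.91 per 10 kb) was close to the higher value of mab-5 (4.88), and both came from replicate 1.

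**Figure D2:**
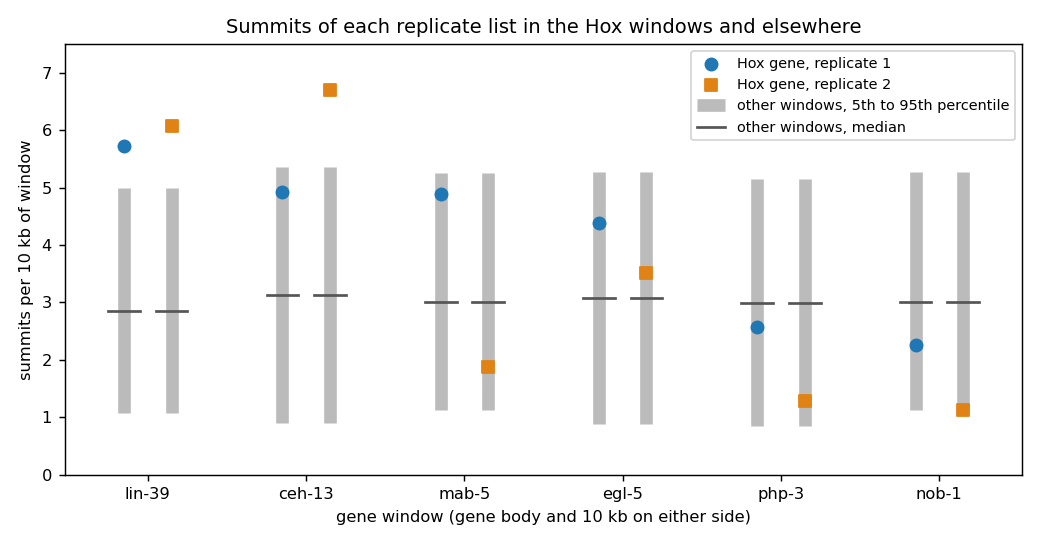
Summits per 10 kb of window in replicate 1 (circles) and replicate 2 (squares) for each Hox gene; grey bars span the 5th to 95th percentile of other windows of the same size and dark lines their median. Both replicates lie above the bar at lin-39, replicate 2 alone does at ceh-13, and the other genes lie within the bars or at their lower end.

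The strongest single summits were likewise at lin-39, ceh-13 and mab-5 in each replicate. Summits among the first 1000 of replicate 1 were in the windows of lin-39, ceh-13 and mab-5, or 3 of 6, beside 18.6% of the other genes' windows. Those among the first 1000 of replicate 2 were in the windows of the same 3 genes, beside 19.2%. The first 1000 of replicate 1 gave 1 summit at lin-39, 1 at ceh-13 and 2 at mab-5, and those of replicate 2 gave 2 at lin-39, 1 at ceh-13 and 1 at mab-5. A replicate 1 summit with q below 0.05 was at mab-5 alone (background 3.53%), and a replicate 2 summit with q below 0.05 was at lin-39 and at ceh-13 (background 2.84%). No Hox gene had such a summit in both replicates.

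**Figure D3:**
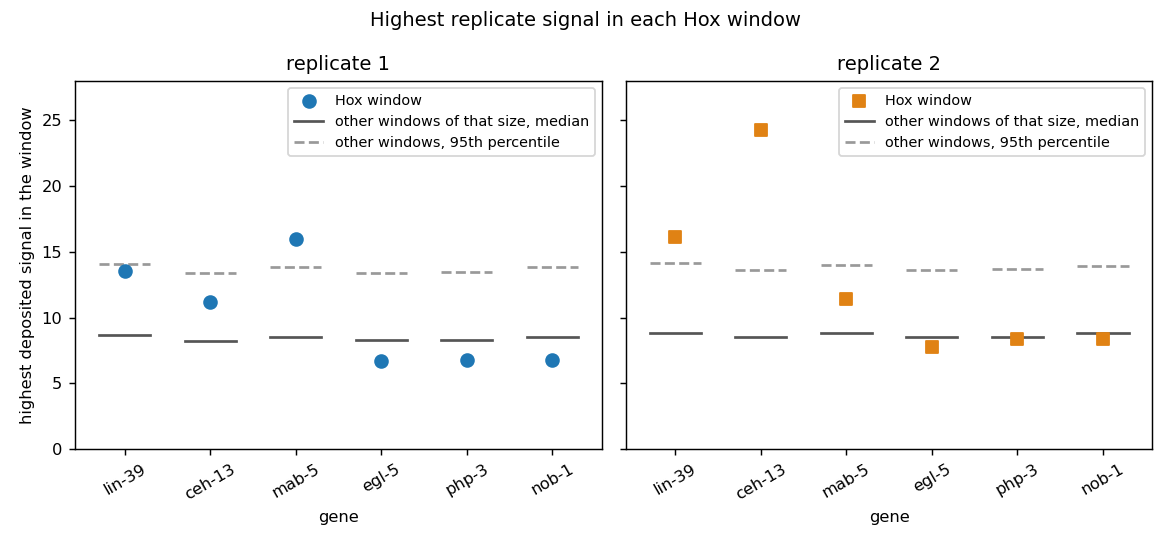
Highest deposited signal in each Hox window, for replicate 1 (left) and replicate 2 (right), with the median (solid line) and 95th percentile (dashed line) of the highest signal in other windows of that size. Replicate 2 exceeds the dashed line at lin-39 (16.1) and ceh-13 (24.3) and replicate 1 at mab-5 (16.0), while egl-5, php-3 and nob-1 lie below the median in both.

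Agreement of the replicates depended on the match distance. The pooled list was called on the reads of both replicates. Of the 5 pooled summits, 3 had a replicate 1 summit within 200 bp and 4 a replicate 2 summit, beside 88.3% and 88.1% of the other nuclear pooled summits. A match in both was found for 2 of 5, the lin-39 intron and the ceh-13 downstream summit, beside 76.4%. Neither value required the replicate summits to match each other. At the lin-39 intron they lay 120 bp from each other. At the ceh-13 downstream summit they were 273 bp apart, beyond the 200 bp of a match. The count of 2 was 0 with a match within 100 bp, 3 with a match within 500 bp, and 0 with the first 5000 regions of each replicate alone. The share of other pooled summits at these settings is not given, so whether they shift likewise cannot be told. The 2 that matched in both were not those with the strongest replicate values. Of the 56 replicate 1 summits in the windows 9 had a replicate 2 match, or 16.1%, beside 23.1% elsewhere. Of the 50 replicate 2 summits 9 had a replicate 1 match, or 18%, beside 23.2%. These matches were 4 at lin-39, 2 at ceh-13, 1 at mab-5 and 2 at egl-5. Among the first 1000, 1 of 4 replicate 1 summits matched any replicate 2 summit, beside 43.2% elsewhere, and 0 of 4 replicate 2 summits matched any replicate 1 summit, beside 46.0%.

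**Figure D4:**
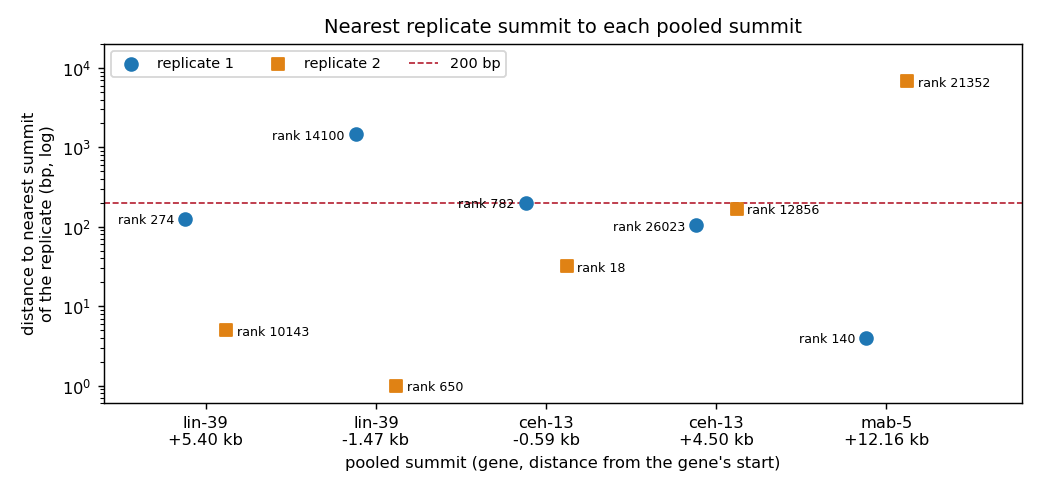
Distance in bp (log axis) from each of the 5 pooled summits to the nearest summit of replicate 1 (circles) and replicate 2 (squares), with that summit's rank in its list; the dashed line is 200 bp. The ceh-13 upstream summit has replicate 2 rank 18 at 32 bp while the nearest replicate 1 summit, rank 782, lies just above the dashed line, and the replicate 2 summit nearest to the mab-5 summit is 6789 bp away.

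Motifs were sought within 100 bp of the pooled summits. TGACAG was at 1 of 5, the ceh-13 upstream summit, where its complement CTGTCA begins 13 bp after the summit, and it was at 8.63% of other nuclear pooled summits and 6.77% of windows of the same width over the nuclear genome. The same ceh-13 window holds TGATTAAT, a match to TGATNNAT that begins 26 bp before the summit. TGATNNAT was at 3 of 5, also upstream of lin-39 (TGATTTAT) and downstream of ceh-13 (TGATCGAT), against 16.3% of other pooled summits and 15.4% of genome windows. The lin-39 match began 84 bp before its summit and the ceh-13 downstream match 90 bp after its summit, both near the edge of the 100 bp searched. GAGAGA was at 1 of 5, upstream of lin-39, against 22.3% and 9.99%. TGATTGAC, whose last 4 bases are the first 4 of TGACAG, was at 0 of 5, against 1.13% and 0.566%. The lin-39 intron and mab-5 sequences held none of the 4. The share of G and C in these windows was 35.8% at the median of the 5 (31.8 to 39.8), against 37.8% for the other pooled summits. A match to a motif is a description of the letters and not of a bound site.

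Genes linked to Hox function were counted in windows built the same way. Of 5 Hox cofactors, 3 had a pooled summit. The gene unc-62 had 11, with a highest signal of 82.4, and its window held 3 summits of the reproducible list. However, the strain carries added copies of unc-62, whose part in these signals was not tested. The Pbx-class gene ceh-20 had 2, with a highest signal of 26.4 and replicate signals of 14.0 and 10.7, and ceh-40, also of the Pbx class, had 1 at 17.0. Of 15 regulators of Hox genes, 2 had a pooled summit: lin-59, a histone methyltransferase of the Trithorax group, with 2 (highest 37.8, 1 of them reproducible), and sor-1, a factor that keeps Hox genes silent outside their domains, also with 2 (highest 20.1). The other 13 had none. Of 7 known Hox targets, 3 had a pooled summit: mig-13, which acts in neuroblast migration, with 5 (highest 22.4), egl-1, a cell death activator, with 2 (17.7) and eff-1, a cell fusion protein, with 1 (16.0). These shares (3 of 5, 2 of 15 and 3 of 7) stand beside 34.7% of all other protein-coding genes. The median count was 1 for the cofactors and 0 for the other lists and for all genes.

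For each Hox gene the most similar other gene was sought among 19940 by 4 measures, the pooled summits per 10 kb and the highest signal in the pooled and both replicate lists. It was ncl-1 for lin-39, with highest replicate signals of 14.2 and 15.7 and a distance of 0.246 in SD units. It was F55G7.3 for ceh-13 (11.4 and 24.3, distance 0.175) and gad-3 for mab-5 (15.98 and 11.8, distance 0.148). The pooled values were less alike. The highest pooled signals of ncl-1, F55G7.3 and gad-3 were 19.6, 35.9 and 21.6, against 21.7, 28.7 and 19.6 for lin-39, ceh-13 and mab-5. The ncl-1 window held 3 pooled summits, against 2 for lin-39. For egl-5, php-3 and nob-1, with no pooled summit, Y54G2A.38, cyb-3 and ugt-52 had nearly the same replicate values, at distances of 0.00669, 0.0154 and 0.0196.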

How the data were processed

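UNC-62 ChIP-seq regions came as lists in narrowPeak format on build ce11, the same assembly as WBcel235: 1 per replicate, 1 called on both replicates pooled, and 1 reproducible list. Per the labels and the deposited file lists, the first 3 mix peaks with background, as the irreproducible discovery rate step needs, and calling used a control that is not analysed here. The sources used here give no aligner and no caller. The deposited signal value of each region is a score by the authors, and was compared within its list alone. The deposited −log10 q value is also the authors' own and was turned into a q value. Total reads are unknown, so depth cannot be given. The ce10 lists were not used, since coordinates were not converted.

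Summits (column 2 plus column 10, as 1-based positions) were counted from 10000 bp before to 10000 bp after each gene of Ensembl release 115. Ranks run from the highest signal, and a match is a summit within 200 bp. Windows elsewhere did not overlap a Hox window. No test was made: there is 1 group. The counting steps were tested on simulated data. The 6 genes, the lists and the motifs were chosen with earlier results of these data known. The genes named were the 6 Hox genes, the gene with the nearest start to each pooled summit, up to 3 genes a list by pooled signal, and the most similar gene to each Hox gene; any further name was picked with its values in view. Similarity was the Euclidean distance over pooled summits per 10 kb and log2(1 + highest signal), each divided by its SD over genes, with windows that overlap a Hox window left out. Other settings were tried for the flank, the match, the list, the windows and the motif width. The software was Python 3.11.15 with numpy 2.4.6 and scipy 1.17.1, and matplotlib 3.10.9 for plots.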

Additional observations from a re-analysis of the deposited data

How the results depend on the processing

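Of 39 alternatives, 28 stayed within 1.5 times the count, or within the 95% exact binomial interval of the share, and 11 moved. The pooled count of 5 ranged from 4 to 6, with flanks of 5000 and 20000 bp, the first 1000 pooled regions, or as many top regions of either replicate alone. With a flank of 5000 bp the mab-5 summit fell outside, which left 2 genes with a pooled summit. The share of other genes at that flank is not given, and the 34.7% above holds for 10000 bp. The reproducible count was 0 with every flank tried. The count of pooled summits matched in both replicates (2) was 0 with a match within 100 bp and 0 with the first 5000 regions of each replicate, 3 with a match within 500 bp, and 3 to 4 when a single replicate was required. For the other match distances and the first 5000 regions, the share of other pooled summits is not given. With the first 1000 pooled regions, lin-39 kept 1 of its 2 summits, ceh-13 kept 2 and mab-5 kept 1. The share of windows with at least as many as were kept was 21.2% for lin-39, 3.09% for ceh-13 and 20.4% for mab-5. That list has fewer regions by construction, and the share with none was 82.1%, 81.9% and 79.8% for egl-5, php-3 and nob-1. Over chromosome III alone, with the full pooled list, the share with at least as many summits as ceh-13 was 11.1%. Within 250 bp TGACAG stayed at 1 of 5 summits, beside 18.7% of other pooled summits, and TGATTGAC at 0 of 5, beside 2.21%. TGATNNAT was at 4 of 5, beside 37.5%. GAGAGA was at 3 of 5 summits within 250 bp, beside 39.5% of other pooled summits. The wider window raised the GAGAGA share of other pooled summits too, from 22.3% within 100 bp. The cause of these shifts was not tested except where stated. No paired analysis was possible because there is 1 group. With 2 replicates of unknown depth, a low rank in 1 replicate cannot be told apart from a lack of reads there.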
